A study of Arabidopsis thaliana with 70 samples.

Results

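The CBF and COR genes of the cold response were followed through every RNA sample of a study of flg22, a peptide of bacterial flagellin that plant immune receptors sense, in Arabidopsis thaliana. The 9 genes were CBF1 (AT4G25490), CBF2 (AT4G25470), CBF3 (AT4G25480), COR15A (AT2G42540), COR15B (AT2G42530), COR47 (AT1G20440), COR78 (AT5G52310), KIN1 (AT5G15960) and KIN2 (AT5G15970), taken by identifier from a table of 33597 genes. COR15A was chosen by its fall after flg22 in these samples, so its differences between groups, those between genotypes included, are given as a description with no test. The study compared wild type (WT) with rdd, in which the genes of the DNA demethylases ROS1, DML2 and DML3 are mutated, in 38 RNA libraries of 14 groups. Seedlings, 10 days old, of WT and of rdd were labelled as treated with 100 nM flg22 for 0, 1 or 3 h, with 3 libraries for each genotype and time. Leaves of 4-week-old soil-grown WT and rdd plants were inoculated by hand with water or with 100 nM flg22 and taken after 24 h, again with 3 libraries a group. In a further set, leaves inoculated in the same ways were given, 24 h later, Pst DC3000 hrcC, a Pseudomonas syringae strain that lacks a working type III secretion system, for 1 h, with 2 libraries a group. No seedling group without flg22 exists at 1 h or 3 h, so flg22 and elapsed time cannot be told apart there, and the labels name no cold treatment.

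CBF1, CBF2 and CBF3 are transcription factors of the DREB1 group that cold induces within a short time, and the circadian clock sets at what time of day their RNA is abundant. They bind the CRT/DRE element in the promoters of COR (cold-regulated) genes. The COR genes encode hydrophilic proteins that build up during cold acclimation: COR15A and COR15B act in the chloroplast, where they protect membranes during freezing, COR47 is a dehydrin, COR78 (also called RD29A or LTI78) is a widely used marker of cold, drought and abscisic acid, and KIN1 and KIN2 are a closely related pair. In the annotation COR15A neighbours COR15B and KIN1 neighbours KIN2, while CBF2, CBF3 and CBF1 lie on chromosome 4 with other annotated genes between them. How reads shared by near-identical copies were counted is not given in the sources used here, so the split of the signal within these pairs and within the CBF trio is uncertain.

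All values are FPKM, fragments scaled to gene length and library total, a unit inferred from the values. Fold changes are on the log2(FPKM + 1) scale with the standard error (SE) of the fit, and a gene was called at a Benjamini-Hochberg adjusted p under 0.05 in limma over all genes tested. The sequencing depth is unknown, and the series text calls the repeats independent without naming separate plants, so p-values measure the spread between these libraries. ROS1 and DML2 transcripts were not called lower in rdd in any comparison of genotypes, and ROS1 was called higher in rdd with hrcC, at 1.15 ± 0.14 after water and 1.03 ± 0.14 after flg22 (log2 ± SE, adjusted p = 0.0175 and 0.0159). The labels do not say which lesions the mutant carries. DML3 lay between 1.76 and 3.57 FPKM in WT leaves at 24 h and between 0.27 and 0.70 FPKM in rdd leaves. Summed root markers (5 genes) were at most 0.21 FPKM in leaves at 24 h and at least 652.5 FPKM in seedlings, as the tissue labels say. Replicate 2 of rdd at 3 h stood apart by 2.85% of its signal from organelle genes, against at most 0.809% in the other seedling libraries. The 4 libraries of replicate 3 of the leaves at 24 h also stood apart, with 0.0734% to 0.0979% of their signal from organelle genes against 3.03% to 5.54% in replicates 1 and 2. With organelle genes left out, the count of members called after flg22 was unchanged in these leaves, 3 in WT and 0 in rdd. That step only rescales the other genes, so it does not address how replicate 3 differs in them.

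The CBF genes had measurable RNA in leaves at 24 h and next to none elsewhere. In those 12 leaf libraries CBF1 ranged from 1.09 to 16.5 FPKM with a median of 7.85, CBF2 from 0.4 to 16.3 with a median of 7.30, and CBF3 from 1.35 to 25.6 with a median of 6.29. In the 18 seedling libraries CBF1 did not exceed 0.25 FPKM and CBF2 did not exceed 0.53 FPKM, while CBF3 was listed at 0 in all 18. In the 8 libraries of leaves with hrcC the highest values were 0.73 FPKM for CBF1, 0.37 for CBF2 and 0.09 for CBF3. The CBF genes thus did not reach the minimum level for a test in seedlings or in leaves with hrcC. There 6 of the 9 members reached it and 5, those other than COR15A, were tested. Seedlings differ from leaves in age, tissue and time since treatment at once, which cannot be told apart. The leaf sets share age, tissue and the first 24 h, and differ by 1 h with hrcC. No leaf group had that hour without bacteria, and the labels give no batch or hour of sampling.

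**Figure D1:**
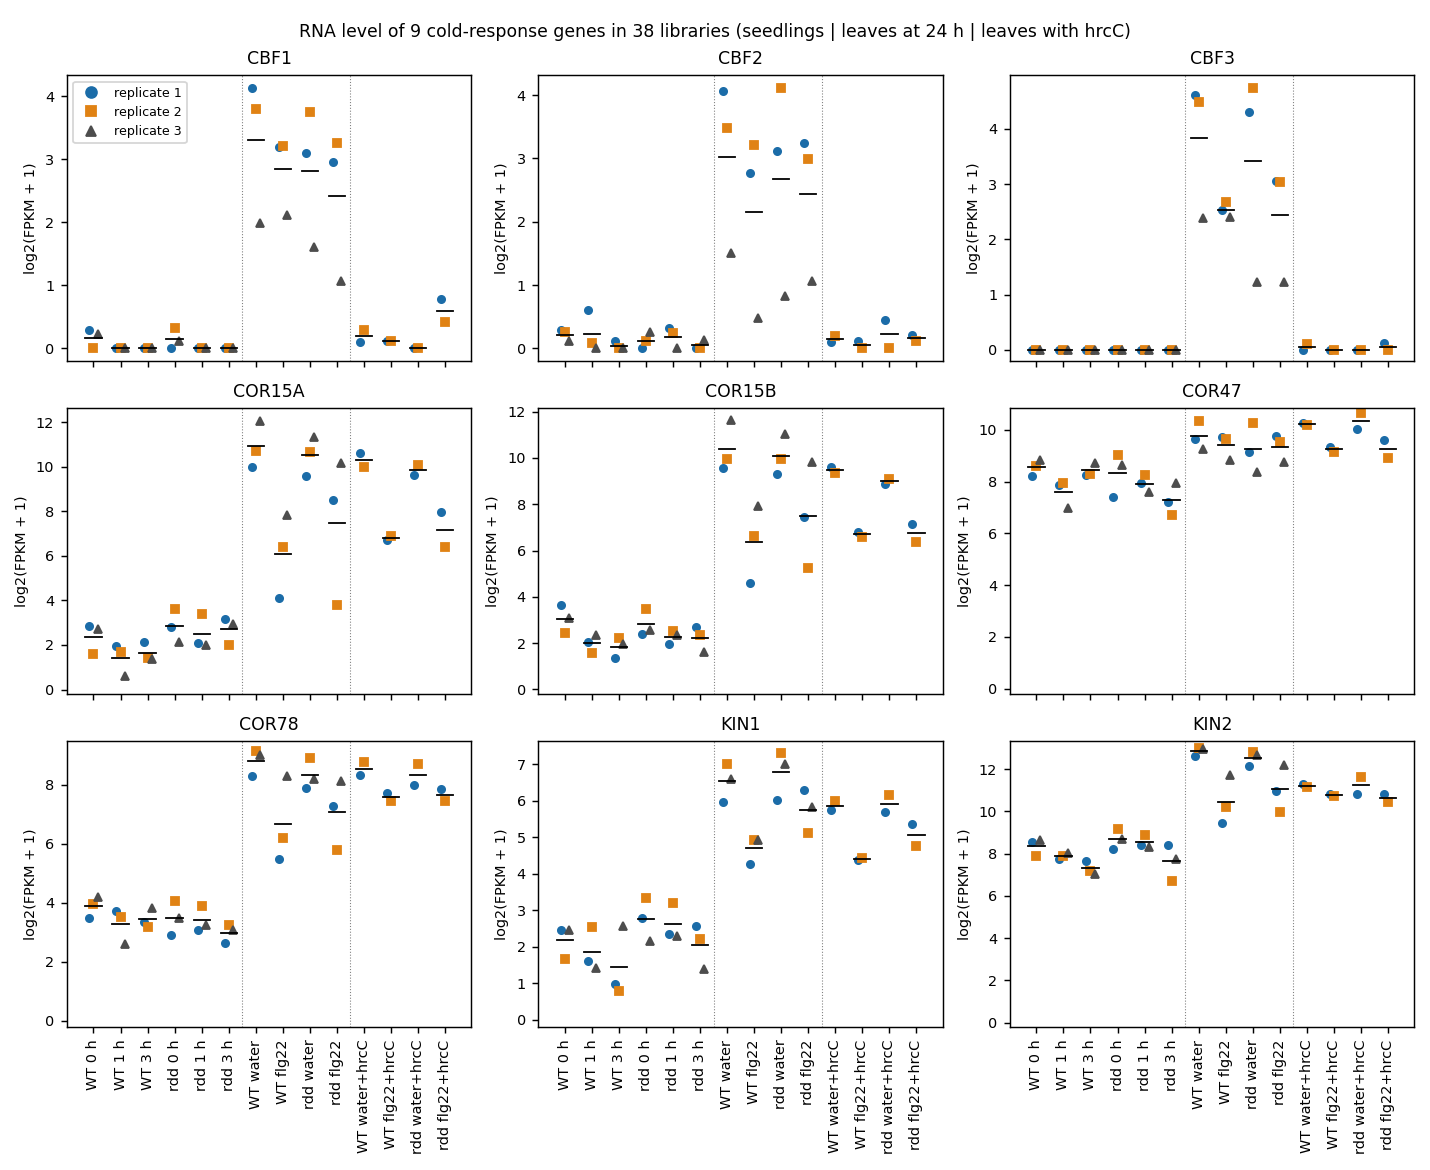
RNA level of the 9 genes in each of 38 libraries, as log2(FPKM + 1); points are libraries by replicate number, bars are group means, and dotted lines part seedlings, leaves at 24 h and leaves with hrcC. The CBF genes exceed 1 FPKM only in leaves at 24 h, while the 6 target genes have higher medians in both leaf sets than in seedlings.

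Within the leaves at 24 h the CBF level followed the replicate number. In replicate 3 CBF1 lay between 1.09 and 3.32 FPKM, below the 6.73 to 16.5 FPKM of replicates 1 and 2. CBF2 lay between 0.4 and 1.85 FPKM against 5.8 to 16.3 FPKM, and CBF3 between 1.35 and 4.29 FPKM against 4.76 to 25.6 FPKM. The 4 libraries of replicate 3 were thus the lowest of the 12 for each CBF gene, with no overlap, whereas the other 6 members overlapped between replicate 3 and the rest. Of all 18164 genes tested in this set, 8.84% were lower in replicate 3 without overlap and 16.2% were higher. Of 11 clock genes, 6 were lower in replicate 3 and 4 were higher without overlap, with GI overlapping. CCA1, a morning clock gene, lay between 0.28 and 1.00 FPKM in replicate 3 and between 3.95 and 9.95 FPKM in replicates 1 and 2. TOC1, an evening clock gene, lay between 102.6 and 145.8 FPKM in replicate 3 and between 31.1 and 42.4 FPKM in replicates 1 and 2. CCA1 was at most 0.34 FPKM in seedlings and at most 0.18 FPKM in leaves with hrcC, the sets in which the CBF genes were near 0. With hrcC, PRR9, PRR7, PRR5 and GI also lay below their ranges in leaves at 24 h. TOC1, LUX, ELF3 and ELF4 lay within those ranges, and LHY and RVE8 overlapped them. MYB15, a repressor of CBF genes, was at least 210.9 FPKM with hrcC and at most 6.96 FPKM in leaves at 24 h. In seedlings MYB15 was at most 13.07 FPKM. The 4 libraries of replicate 3 had the low organelle share given above. The part of the clock state, of MYB15 and of the organelle share in the CBF levels was not tested, and the labels give no hour of sampling.

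**Figure D2:**
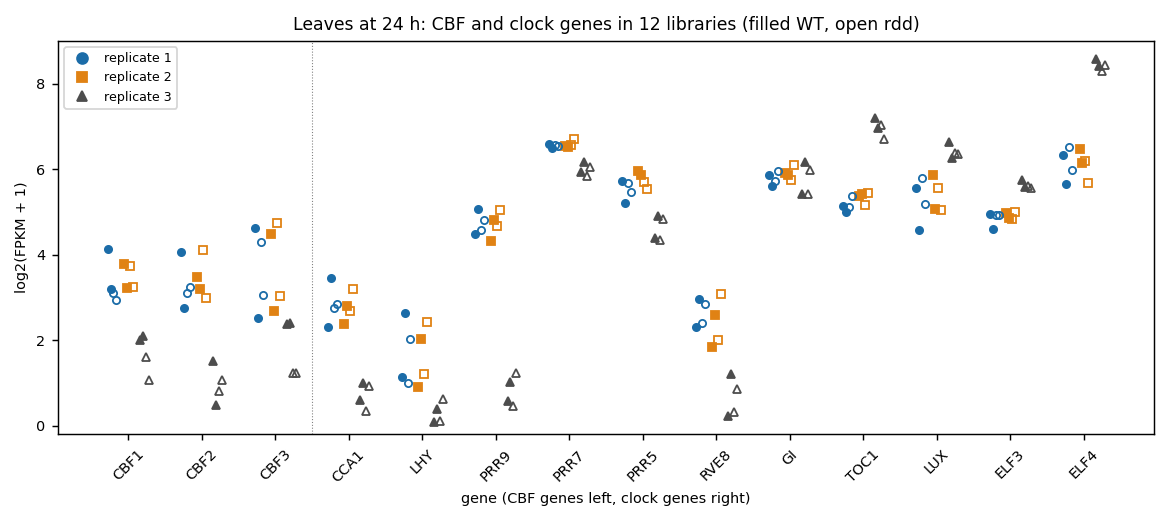
CBF genes and 11 clock genes in the 12 libraries of leaves at 24 h, as log2(FPKM + 1), by replicate number; filled symbols are WT and open symbols rdd. The 4 libraries of replicate 3 are the lowest for CBF1, CBF2, CBF3, CCA1 and PRR9 and the highest for TOC1 and ELF4.

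The target genes had their highest levels in water-treated leaves, and KIN2 was the most abundant. Mean KIN2 was 7570 ± 1090 FPKM (SD, n = 3) in WT leaves 24 h after water and 336 ± 87.2 FPKM (SD, n = 3) in WT seedlings at 0 h. KIN1, its neighbour, was far lower on the same per-length scale, with 95.7 ± 33.6 FPKM and 3.70 ± 1.34 FPKM (SD, n = 3) in those groups. The ratio of KIN2 to KIN1 had a median of 82.4 in seedlings, 57.5 in leaves at 24 h and 46.8 in leaves with hrcC. COR15A and COR15B were low in seedlings and among the more abundant members in WT leaves after water. COR15A was 4.55 ± 2.24 FPKM (SD, n = 3) in WT seedlings at 0 h and 2330 ± 1720 FPKM (SD, n = 3) in those leaves. The ratio of COR15A to COR15B had a median of 0.826 in seedlings, 1.25 in leaves at 24 h and 1.61 in leaves with hrcC. COR47 differed least between the sets, with 378 ± 78.6 FPKM (SD, n = 3) in WT seedlings at 0 h, 899 ± 346 FPKM (SD, n = 3) in WT leaves after water and 1190 ± 51.8 FPKM (SD, n = 2) in WT leaves after water and hrcC.

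The order of the 14 group means put WT water-treated leaves at 24 h first for 7 of the 9 genes, with KIN1 highest in rdd water-treated leaves at 24 h and COR47 highest in rdd leaves after water and hrcC. For COR15A the 8 leaf groups filled ranks 1 to 8, the 4 water groups ahead of the 4 flg22 groups, and the 6 seedling groups filled ranks 9 to 14. Neighbouring groups in that order overlapped within their SD in 13 of 13 steps for COR15A and COR78, and in 11 to 12 of 13 steps for the other 7 genes, so the order is resolved only across larger distances.

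In WT leaves at 24 h most target genes were much lower after flg22 than after water, with COR15A and COR15B lowest relative to water. COR15A was 1029, 1693 and 4279 FPKM in replicates 1, 2 and 3 after water and 16.3, 82.1 and 226 FPKM after flg22. Each water library lay above each flg22 library, and replicate 3 was the highest in both groups. The fall was 4.83 ± 1.48 (SE) on the log2 scale, and the same-number ratios of water to flg22 were 63.1, 20.6 and 19.0. This is the change COR15A was picked for, and it carries no test. In bulk RNA, fewer cells that make a transcript and less of it per cell cannot be told apart.

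Of the 8 other members, COR15B, KIN1 and KIN2 fell in WT leaves by the fit over all genes, 3 of 8, where 8.3% of all genes tested were called lower. COR15B was 759.95, 996 and 3194 FPKM after water and 23.5, 96.9 and 241 FPKM after flg22. The groups did not overlap, and the order of the 3 replicates was the same in both, replicate 3 being highest. COR15B fell by 4.01 ± 1.17 (SE) on the log2 scale, 16.1-fold, with a limma adjusted p of 0.0328. KIN2 was 6315, 8312 and 8077 FPKM after water and 689, 1197 and 3428 FPKM after flg22. Again no flg22 library reached a water library. KIN2 fell by 2.41 ± 0.63 (SE), 5.31-fold, with an adjusted p of 0.0213. KIN1 was 62.1, 129 and 95.8 FPKM after water and 18.2, 29.6 and 29.4 FPKM after flg22. Its libraries also did not overlap. KIN1 fell by 1.83 ± 0.42 (SE), 3.55-fold, with an adjusted p of 0.0119.

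The remaining members of the WT leaf comparison did not pass the test. COR78 was 313, 568 and 513 FPKM after water and 43.5, 72.5 and 314 FPKM after flg22. Only replicate 3 of the flg22 group reached the water group. The difference of COR78 was -2.16 ± 0.74 (SE) with a limma adjusted p of 0.0616. CBF3 was 23.5, 21.5 and 4.23 FPKM after water and 4.76, 5.41 and 4.29 FPKM after flg22. The water libraries of replicates 1 and 2 were high, and that of replicate 3 lay just below its flg22 library. The difference of CBF3 was -1.30 ± 0.92 (SE) with an adjusted p of 0.36. CBF1 at -0.47 ± 0.77, CBF2 at -0.87 ± 1.05 and COR47 at -0.35 ± 0.50 (log2 ± SE) had adjusted p-values between 0.615 and 0.726. COR47 overlapped between the groups, from 608 to 1282 FPKM after water and from 448 to 848 FPKM after flg22. Without COR15A, 3 of 8 members lay below water without overlap, where 14.6% of all genes tested did.

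In leaves at 24 h, libraries with the same number deviated together, although only 6 of 12 libraries were closest to their own number. With the replicate number as a block, COR15B, COR78, KIN1, KIN2 and CBF2 were called lower in WT, 5 of 8, against 17.9% of all genes. The blocked adjusted p was 0.0021 for COR15B, 0.0214 for COR78, 0.00557 for KIN1, 0.0038 for KIN2 and 0.0339 for CBF2. Single libraries carried much of the unblocked result. Without replicate 1 of WT flg22 no member was called. Without replicate 2 or replicate 3 of WT water, or without replicate 2 of WT flg22, 1 member, KIN1, was called. COR78 was called without replicate 3 of WT flg22, at -2.98. COR15B lost its call without any 1 of those 4 libraries and also without replicate 1 of WT water, while its difference stayed between -4.78 and -3.12. With replicates 1 and 2 alone, a choice made after the data were seen, 6 of the 8 were called lower, and CBF3 was lower by a log2 difference of -1.95 ± 0.15 (SE) with an adjusted p of 0.000394.

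**Figure D3:**
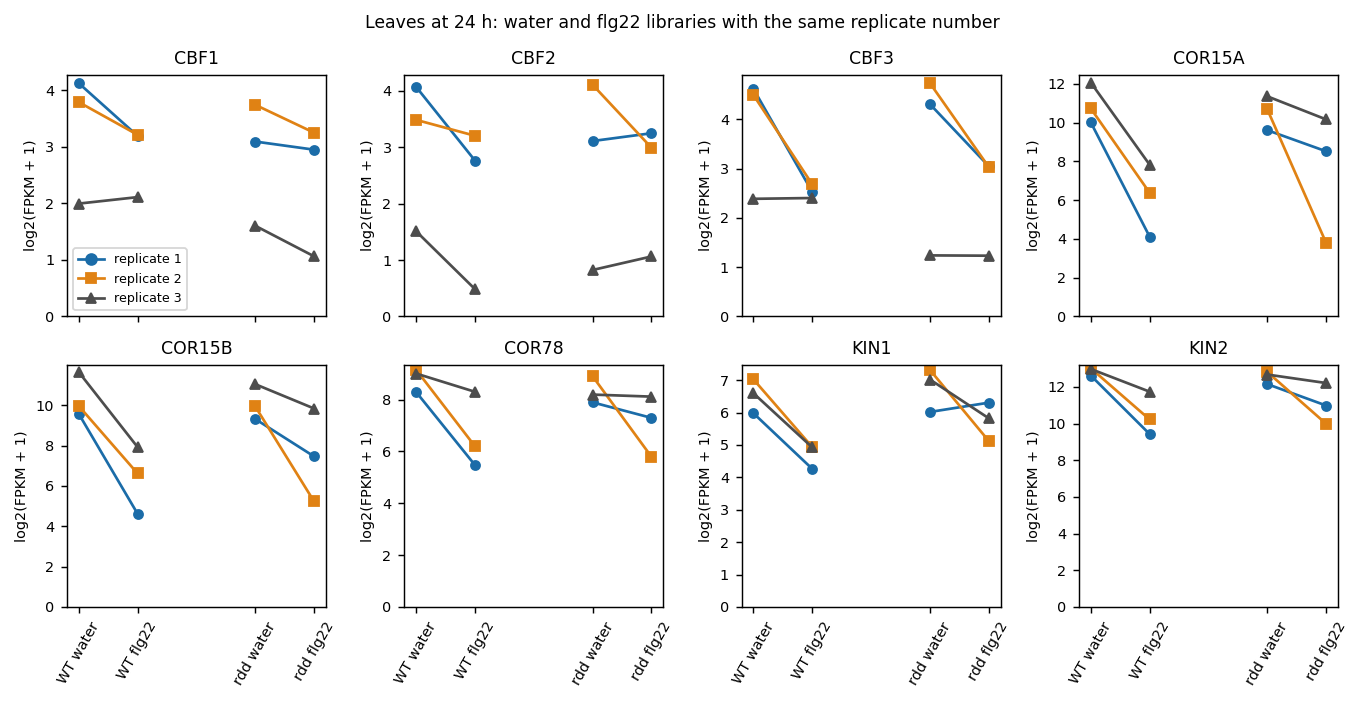
Water and flg22 libraries of leaves at 24 h with the same replicate number, joined by lines, as log2(FPKM + 1), for 8 of the 9 genes (COR47 is not drawn). COR15A, COR15B, COR78 and KIN2 are lower after flg22 in 6 of 6 pairs, and the size of the step differs most between the rdd pairs.

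In rdd leaves at 24 h the same genes were lower after flg22 in most pairs, but the 3 pairs differed widely and no member passed the test. COR15A was 779, 1642 and 2614 FPKM in replicates 1, 2 and 3 after water and 365, 12.9 and 1144 FPKM after flg22. Replicate 2 had the highest ratio of water to flg22, 128, while replicates 1 and 3 had ratios of 2.13 and 2.28, and the flg22 library of replicate 3 lay above the water library of replicate 1. The difference of COR15A was -3.06 ± 1.48 (SE) on the log2 scale, given with no test. COR15B was 635, 980 and 2105 FPKM after water and 175, 36.4 and 912 FPKM after flg22. Replicate 2 was again the lowest flg22 library, and the groups overlapped. The difference of COR15B was -2.59 ± 1.17 (SE) with a limma adjusted p of 0.164. KIN2 was 4563, 7215 and 6553 FPKM after water and 2030, 1017 and 4754 FPKM after flg22. Replicate 3 after flg22 lay just above replicate 1 after water. The difference of KIN2 was -1.49 ± 0.63 (SE) with an adjusted p of 0.141.

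Of the 8 members tested in rdd leaves at 24 h, 0 were called by limma and 2 had an unadjusted p under 0.05, where 3.72% of all genes were called lower. With the replicate block COR15B and KIN2 were called lower, with adjusted p-values of 0.0187 and 0.036, against 10.9% of all genes. The count also became 2 without replicate 3 of rdd flg22, and 3 with replicates 1 and 2 alone. In rdd replicate 1, KIN1 was higher after flg22 (78.2 FPKM) than after water (63.9 FPKM), the reverse of the other 5 leaf pairs. Across both genotypes flg22 was the lower library of a pair in 6 of 6 pairs for COR15A, COR15B, COR78 and KIN2, in 5 of 6 for CBF1, CBF3 and KIN1, in 4 of 6 for CBF2 and in 3 of 6 for COR47. The response of rdd minus that of WT was 1.42 ± 1.65 (log2 ± SE) for COR15B and 0.79 ± 0.59 for KIN1, and for 8 of 8 members tested limma gave an adjusted p of 1, with 0 at an unadjusted p under 0.05 and 0% of all genes called. Green leaf cell markers were lower after flg22 in the same leaves as a sum. RCA, 1 of them, lay within 3765 to 4394 FPKM over all libraries of replicates 1 and 2, water and flg22 together. The summed level of 5 such genes was 40520 to 42400 FPKM in WT after water and 15960 to 25300 FPKM after flg22, and 40050 to 45510 FPKM and 19660 to 23340 FPKM in rdd. Their part in the target gene levels was not tested.

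In leaves that then received hrcC for 1 h, the target genes were lower after flg22 than after water in both genotypes, with smaller standard errors than at 24 h. COR15A was 1560.49 and 1025 FPKM after water and 105 and 118 FPKM after flg22 in WT, and 798 and 1094 FPKM after water and 251 and 82.5 FPKM after flg22 in rdd. The groups did not overlap in either genotype. The difference was -3.49 ± 0.48 (log2 ± SE) in WT and -2.69 ± 0.48 in rdd, with no test. COR15B was 771 and 661 FPKM after water and 111 and 94.9 FPKM after flg22 in WT. In rdd COR15B was 474 and 542 FPKM after water and 141 and 81.2 FPKM after flg22. COR15B fell by 2.78 ± 0.24 (SE) in WT and fell by 2.23 ± 0.24 (SE) in rdd, with limma adjusted p-values of 0.000161 and 0.000498.

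KIN1, COR47 and COR78 had smaller fold changes in these leaves than COR15B, a difference between genes that was not tested. KIN1 was 53.3 and 62.3 FPKM after water and 19.8 and 20.6 FPKM after flg22 in WT, with no overlap. KIN1 fell by 1.47 ± 0.22 (SE, limma adjusted p = 0.00162) in WT and fell by 0.87 ± 0.22 (SE, adjusted p = 0.0173) in rdd. COR47, which was not called at 24 h without bacteria, was 1231 and 1158 FPKM after water and 645 and 567 FPKM after flg22 in WT. COR47 fell by 0.98 ± 0.26 (SE, adjusted p = 0.019) in WT and fell by 1.08 ± 0.26 (SE, adjusted p = 0.0143) in rdd. COR78 was 319 and 431 FPKM after water and 207 and 172 FPKM after flg22 in WT, where it fell by 0.97 ± 0.26 (SE, adjusted p = 0.02). In rdd the difference of COR78 was -0.68 ± 0.26 (SE, adjusted p = 0.0744). KIN2 was 2549.69 and 2248 FPKM after water and 1822 and 1686 FPKM after flg22 in WT, a difference of -0.45 ± 0.26 (SE, adjusted p = 0.188), and in rdd the difference was -0.61 ± 0.26 (SE, adjusted p = 0.0948).

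In total 4 of the 5 members tested fell in WT with hrcC and 3 of 5 in rdd, against 23% and 18.6% of all genes called lower. Without COR15A, 5 of 8 members were lower without overlap in each genotype, and these were the 5 that reached the minimum level for a test. Of all genes that reached it, 37.9% were lower in WT and 34% in rdd. CBF1 was listed at 0 in both rdd libraries after water and at 0.73 and 0.33 FPKM after flg22. In WT the count became 2 without replicate 2 of either group, when COR78 also lost its call, and COR47 lost its call without any 1 of the 4 libraries. In rdd the count became 1 without replicate 2 of either group and 5 without replicate 1 of the water group. The difference of the responses, rdd minus WT, was 0.55 ± 0.34 (log2 ± SE, adjusted p = 0.58) for COR15B and 0.60 ± 0.31 (adjusted p = 0.506) for KIN1, with 0 of 5 members called, 0 at an unadjusted p under 0.05 and 0.0956% of all genes called. The green leaf cell markers were lower after flg22 here too, with 5 of 5 called in each genotype, and their part in these results was not tested.

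**Figure D4:**
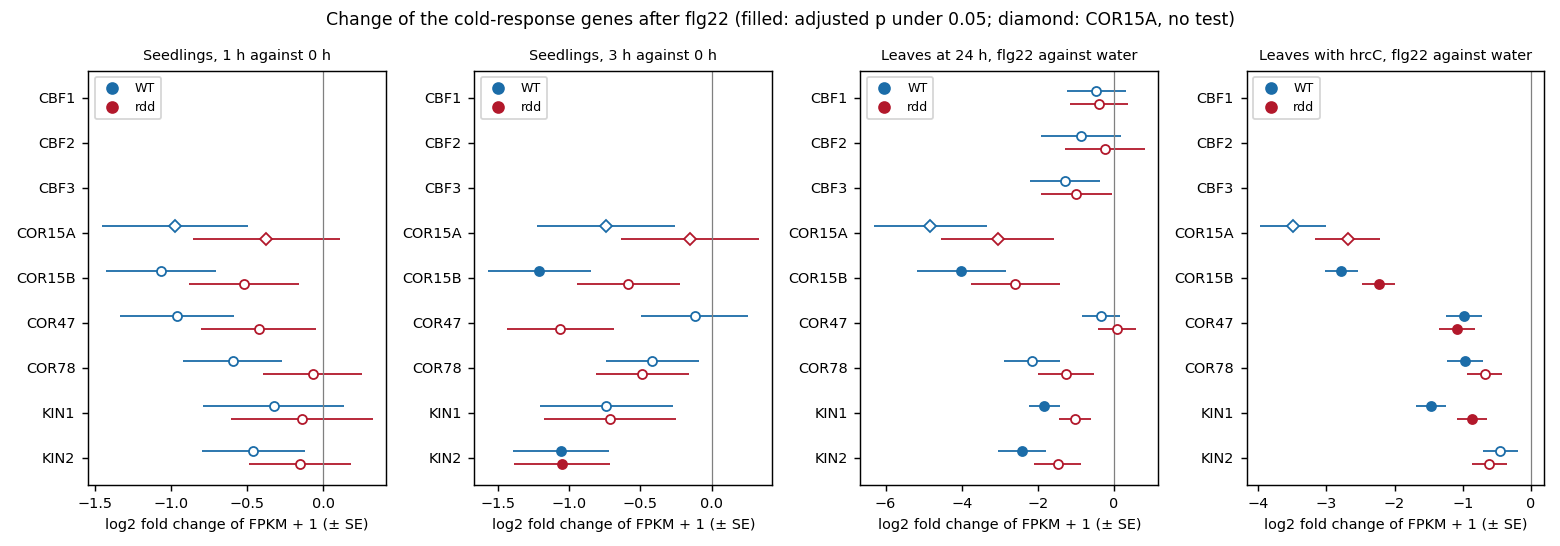
Log2 fold change of FPKM + 1 after flg22 with its SE, for WT and rdd in 4 comparisons; filled circles have an adjusted p under 0.05, and diamonds mark COR15A, which carries no test. COR15B changed by -4.01 in WT leaves at 24 h and by -2.78 in WT leaves with hrcC, against -1.21 in WT seedlings at 3 h, and the horizontal scales differ between panels.

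In seedlings COR15A, COR15B, COR78 and KIN1 changed less after flg22 than in either leaf set, in each genotype. KIN2 and COR47 did not follow this. In WT, KIN2 differed by -1.06 in seedlings at 3 h against -0.45 in leaves with hrcC. COR47 in WT differed by -0.96 in seedlings at 1 h against -0.35 in leaves at 24 h. Differences between the sets were not tested, and the 1 added to FPKM lessens fold changes at the low seedling levels of COR15A and COR15B. COR15B was 11.5, 4.43 and 7.49 FPKM in WT at 0 h, 3.12, 2.01 and 4.05 FPKM at 1 h, and 1.55, 3.66 and 2.92 FPKM at 3 h. The libraries at 1 h and 3 h all lay below those at 0 h. COR15B fell by 1.21 ± 0.36 (SE) on the log2 scale at 3 h, with a limma adjusted p of 0.0262, and differed by -1.07 ± 0.36 (SE, adjusted p = 0.0524) at 1 h. KIN2 was 373, 236 and 397 FPKM at 0 h, 213, 238 and 265 FPKM at 1 h and 199.95, 145 and 132 FPKM at 3 h. Its libraries at 3 h all lay below those at 0 h. KIN2 fell by 1.06 ± 0.34 (SE, adjusted p = 0.0367) at 3 h. COR47 was 297, 385 and 453 FPKM at 0 h, 229, 245 and 124 FPKM at 1 h and 306, 313 and 423 FPKM at 3 h, lowest at 1 h. Its difference was -0.96 ± 0.38 (SE, adjusted p = 0.097) at 1 h and -0.12 ± 0.38 (SE, adjusted p = 0.87) at 3 h.

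COR15A was 6.13, 1.99 and 5.54 FPKM in WT seedlings at 0 h, 2.83, 2.18 and 0.51 FPKM at 1 h, and 3.35, 1.63 and 1.62 FPKM at 3 h. Its groups overlapped, with differences of -0.97 ± 0.48 and -0.74 ± 0.48 (log2 ± SE) that carry no test. Of the 5 other members tested in WT seedlings, 2 were called lower at 3 h, where 6.81% of all genes were, and 0 at 1 h, where 7.64% were and 2 had an unadjusted p under 0.05. At each time 2 of the 8 members other than COR15A, both among the 5 tested, were below 0 h without overlap, against 20.6% and 16.1% of all genes tested. These were COR15B with COR47 at 1 h and COR15B with KIN2 at 3 h. The count at 3 h became 0 without replicate 1 or 3 at 0 h or replicate 3 at 3 h, and 1 without replicate 1 or 2 at 3 h. The count at 1 h became 1, COR15B, without replicate 2 at 0 h. With no filter on low values the call of KIN2 at 3 h was lost (adjusted p = 0.058). Green leaf cell markers were lower in the same seedlings, with 2 of 5 called lower at 1 h and 5 of 5 at 3 h, and 2 of 5 root markers were called lower at 3 h. The summed level of the green leaf cell markers was 31140 to 34280 FPKM at 0 h and 19910 to 22910 FPKM at 3 h, and that of the root markers 1175 to 1570 FPKM and 652.5 to 837.5 FPKM. Their part in the member values was not tested.

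In rdd seedlings KIN2 was the member called. KIN2 was 295, 577 and 409 FPKM at 0 h, 337, 476 and 317 FPKM at 1 h and 341, 105 and 216 FPKM at 3 h. Replicate 2 was the highest library at 0 h and the lowest at 3 h, and the groups overlapped. KIN2 fell by 1.05 ± 0.34 (SE, limma adjusted p = 0.0429) at 3 h, 1 of 5 members where 8.03% of all genes were called lower. This call was lost without replicate 2 or 3 at 0 h and without replicate 2 or 3 at 3 h, and without replicate 2 at 3 h, the library with the most organelle signal, the difference was -0.60. It was also lost with no filter (adjusted p = 0.0645), without trend and robust variances (0.0545) and with the compared groups alone (0.227). Of the green leaf cell markers 3 of 5, and of the root markers 1 of 5, were called lower in rdd at 3 h, with summed levels of 26650 to 29830 FPKM at 0 h and 21320 to 23640 FPKM at 3 h for the green leaf cell markers, and their part was not tested. Without replicate 3 at 3 h COR47 was called in its place, and without replicate 1 at 0 h both were. COR47 at 3 h was 147, 103 and 246 FPKM against 166, 515 and 398 FPKM at 0 h, a difference of -1.06 ± 0.38 (SE, adjusted p = 0.0645). At 1 h 0 of 5 members were called and 0 had an unadjusted p under 0.05, where 6.58% of all genes were called lower, and the median of all genes moved by -0.05 at 1 h and by -0.14 at 3 h on the log2 scale. Between 1 h and 3 h limma called 0 of 5 members in either genotype, where 18.7% of all genes were called in WT and 11.4% in rdd, and 1 member in each genotype had an unadjusted p under 0.05. Without replicate 1 at 3 h KIN2 was called between these times in rdd, at -1.29. The difference of the responses, rdd minus WT, was 0.54 ± 0.51 (log2 ± SE) at 1 h and 0.62 ± 0.51 at 3 h for COR15B, and -0.94 ± 0.53 at 3 h for COR47. Of 5 members 0 were called for it at 1 h and 0 at 3 h, with 0 at an unadjusted p under 0.05, where 0.0106% and 0.00529% of all genes were called.

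Between rdd and WT none of the 8 members other than COR15A was called in any of the 7 conditions. The share of all genes called in either direction was 0.323%, 0.286% and 0.953% in seedlings at 0, 1 and 3 h, 0.0881% and 0.171% in leaves at 24 h after water and flg22, and 0.945% and 2.08% in leaves with hrcC after water and flg22. At an unadjusted p under 0.05 limma gave 0, 0 and 1 of 5 of them in seedlings, 0 and 1 of 8 in leaves at 24 h, and 0 and 1 of 5 with hrcC. COR15A was 3.19, 9.43 and 2.99 FPKM in rdd seedlings at 1 h against 2.83, 2.18 and 0.51 FPKM in WT. The rdd libraries lay above those of WT. The difference was 1.08 ± 0.48 (log2 ± SE) at 1 h and 1.07 ± 0.48 at 3 h, with no test. COR47 at 3 h lay between 103 and 246 FPKM in rdd and between 306 and 423 FPKM in WT, with no overlap. The difference of COR47 was -1.14 ± 0.38 (SE, adjusted p = 0.132), and it was called only without replicate 3 of rdd at 3 h, at -1.47.

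In leaves at 24 h after flg22 KIN1 was 78.2, 33.8 and 55.7 FPKM in rdd and 18.2, 29.6 and 29.4 FPKM in WT. The rdd libraries all lay above those of WT, although replicate 2 of rdd was close to the highest WT library. The difference was 1.05 ± 0.42 (log2 ± SE) with a limma adjusted p of 1, and in leaves with hrcC after flg22 it was 0.65 ± 0.22 with an adjusted p of 0.2. COR15A in leaves after flg22 differed by 1.39 ± 1.48 at 24 h and by 0.37 ± 0.48 with hrcC (log2 ± SE), with no test. For COR15B the difference in water-treated leaves was -0.29 ± 1.17 at 24 h and -0.49 ± 0.24 with hrcC, with adjusted p-values of 1 and 0.472. The CBF genes in leaves at 24 h differed by -0.49 to 0.28 on the log2 scale between genotypes, with SEs from 0.77 to 1.05 and limma adjusted p-values of 1. With the replicate block the SEs were 0.24 for CBF1, 0.29 for CBF2 and 0.51 for CBF3, and no CBF gene was called. The blocked limma adjusted p-values after flg22 were 0.576, 0.755 and 0.963. Of the 8 members other than COR15A, those without overlap were 1 above WT in seedlings at 1 h (KIN2) and 1 below at 3 h. In leaves at 24 h after flg22, 1 was above. With hrcC, 2 were below after water (COR15B and CBF1) and 2 above after flg22 (KIN1 and CBF1). The corresponding shares of all genes tested were 14.4%, 15.6%, 4.7%, 21.9% and 28.6%, and the CBF genes were tested only in leaves at 24 h. CBF1 did not exceed 0.73 FPKM with hrcC.

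**Figure D5:**
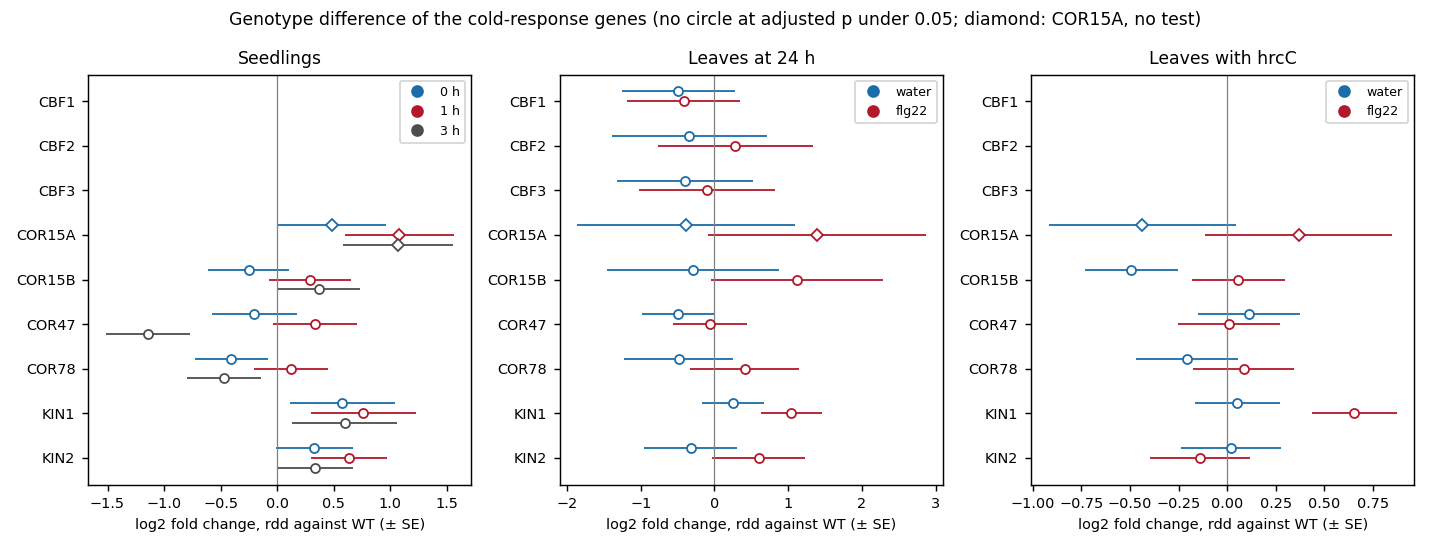
Log2 fold change of FPKM + 1 of rdd against WT with its SE, for each of 7 conditions; open circles have an adjusted p of 0.05 or more, which applies to all circles shown, and diamonds mark COR15A, which carries no test. In seedlings at 3 h COR47 lies at -1.14 and COR15A at 1.07.

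Genes upstream of the CBFs were called in seedlings at 1 h about as often as all genes. In WT at 1 h, 2 of 20 upstream genes rose and 1 fell, where 9.62% and 7.64% of all genes did, and the median of the list was 0.01 against -0.08 over all genes. MYB15, a repressor of CBF genes, was 0.4 ± 0.27 FPKM at 0 h and 7.11 ± 2.70 FPKM at 1 h (SD, n = 3) and rose by 2.50 ± 0.31 (SE, limma adjusted p = 1.07e-05). SIZ1, a SUMO ligase that stabilises ICE1, rose by 1.05 ± 0.17 (SE), and PIF4, a light-signalling factor that represses CBF genes, fell by 0.91 ± 0.22 (SE). Of 8 further transcription factors that cold induces early, 5 rose and 0 fell in WT at 1 h, with a list median of 0.94. ZAT10, a zinc finger repressor, rose by 2.69 ± 0.23 (SE), ZAT6 by 2.54 ± 0.30 and ZAT12 by 1.59 ± 0.21. DREB2A, a relative of the CBFs known from drought and heat, was 2.68 ± 0.28 FPKM at 0 h and 29.9 ± 9.08 FPKM at 1 h (SD, n = 3) and rose by 3.03 ± 0.32 (SE, adjusted p = 1.66e-06). In rdd at 1 h, where 10.2% of all genes were called higher and 6.58% lower, the counts were 3 up and 1 down of 20 and 6 up and 0 down of 8, with MYB15 at 3.19 ± 0.31, ZAT10 at 2.98 ± 0.23 and DREB2A at 3.19 ± 0.32 (log2 ± SE).

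Of 31 other cold-regulated target genes, 26 reached the minimum level, and in WT 1 rose and 5 fell at 1 h and 2 rose and 8 fell at 3 h, where 12.1% of all genes were called higher and 6.81% lower at 3 h. The list median at 3 h was -0.37 against 0.08 over all genes, in the seedlings whose green leaf cell markers (list median -0.75) and root markers (-0.56) were also lower. COR413IM1, a protein of the inner chloroplast envelope, fell by 1.15 ± 0.14 (SE, limma adjusted p = 1.78e-05) in WT at 3 h, from 220 ± 8.75 to 98.5 ± 6.09 FPKM (SD, n = 3). RCI2A and RCI2B, small membrane proteins, fell by 1.11 ± 0.15 and 1.42 ± 0.21 (SE). RD22, a dehydration-responsive gene, fell by 1.37 ± 0.17 at 1 h and was called higher, at 0.78 ± 0.17, at 3 h. GOLS1, a galactinol synthase of raffinose synthesis, rose by 1.16 ± 0.25 at 1 h. In rdd 2 rose and 5 fell at 1 h, and 0 rose and 9 fell at 3 h, where 8.04% of all genes were called higher and 8.03% lower.

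In leaves at 24 h the listed target genes moved in both directions. In WT 4 rose and 5 fell of 27 tested, where 14.8% of all genes were called higher and 8.3% lower, and with the replicate block 5 rose and 8 fell, against 29.6% and 17.9%. COR413IM1 fell by 1.99 ± 0.56 (SE, limma adjusted p = 0.0291), from 1250 ± 375 to 356 ± 208 FPKM (SD, n = 3), and RCI2A fell by 1.46 ± 0.34 (SE, adjusted p = 0.0135). The share that rose was that of all genes. P5CS1, a proline synthesis enzyme, rose by 1.58 ± 0.46 (SE, adjusted p = 0.0341), its relative P5CS2 by 0.84 ± 0.14 (SE) and RAB18, a dehydrin that abscisic acid induces, by 1.10 ± 0.32 (SE, adjusted p = 0.035). COR413IM1, P5CS1 and RAB18 were named here after their values were seen. In rdd 2 rose, P5CS1 and P5CS2, and 0 fell, against 12.8% and 3.72% of all genes, and with the block 4 rose and 2 fell, against 30.4% and 10.9%. Of the upstream genes 3 rose and 2 fell in WT and 1 rose and 2 fell in rdd, with 9 up and 3 down and 7 up and 2 down under the block. ICE2, an activator of CBF genes, was 15.6 ± 1.69 FPKM after water and 5.22 ± 2.32 FPKM after flg22 in WT (SD, n = 3) and fell by 1.47 ± 0.24 (SE, adjusted p = 0.00246). ZAT12 rose by 2.51 ± 0.33 (SE, adjusted p = 0.000841) in WT and by 2.84 ± 0.33 (SE, adjusted p = 0.000945) in rdd. Of 11 abscisic acid signalling genes 0 were called in either genotype, and with the block 4 rose and 1 fell in WT and 4 rose and 0 fell in rdd.

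With hrcC, 4 of the listed target genes rose and 8 fell of 25 tested in each genotype, where 22.4% and 23% of all genes were called higher and lower in WT and 22% and 18.6% in rdd. COR413IM1 fell by 2.29 ± 0.25 (SE, limma adjusted p = 0.000378) in WT and fell by 1.72 ± 0.25 (SE, adjusted p = 0.00158) in rdd. RD22 fell by 1.10 ± 0.11 in WT and fell by 1.88 ± 0.11 in rdd, and GRP8, a clock-regulated RNA-binding protein, rose by 1.49 ± 0.14 and 1.44 ± 0.14 (SE). ICE2 fell by 0.98 ± 0.15 and 0.73 ± 0.15, and DREB2A fell by 0.93 ± 0.17 and 0.63 ± 0.17. DREB2A rose in seedlings at 1 h against 0 h, a contrast of another kind than flg22 against water here. The counts with hrcC for the lists of ICE2 and DREB2A are not given here. Between genotypes, RD22 was lower in rdd by a log2 difference of -0.86 ± 0.11 (SE, adjusted p = 0.00952) and P5CS1 higher by 0.86 ± 0.14 (SE, adjusted p = 0.0239) in leaves with hrcC after flg22. In the other 6 conditions 0 listed target genes were called between genotypes, and with the replicate block RAB18 was called higher in rdd leaves at 24 h after water (limma, blocked adjusted p = 0.0078).

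Across the 14 groups, each centred within its set of libraries, the genes with patterns most like COR15A were AT4G38370 (Pearson r = 0.994), KAC2 (0.981), AT4G26540 (0.979), AT3G01810 (0.979) and AT1G09750 (0.978) among 16451 genes compared. COR15B, at 0.978, ranked 7, and COR78, at 0.889, ranked 555, so a high r with COR15A was common. The centred pattern of COR15A is mostly its fall after flg22 in leaves, for which it was picked. The ranking thus gathers genes that were lower in those leaves. AT4G38370 was 12.8 ± 1.87 FPKM (SD, n = 3) in WT leaves 24 h after water and 2.99 ± 0.97 FPKM after flg22. The patterns most like CBF2 belonged to AT5G62350 (0.918), the galactinol synthase gene GolS3 (0.911), AT2G21220 (0.908), the aquaporin gene PIP2;8 (0.908) and BAM1 (AT5G65700, 0.907), with COR78 at rank 35 and CBF3 at rank 39. CBF2 and CBF3 had r = 0.74 and 0.724 with COR15A, and CBF1 had r = 0.22. CBF2 group means were at most 0.197 FPKM in seedlings and 0.185 FPKM with hrcC, so the likeness to CBF2 rests mostly on leaves at 24 h. All these correlations are descriptions over group means that share libraries and scaling.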

How the data were processed

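The series holds 70 samples, of which 38 are RNA libraries and 32, not used here, are bisulfite libraries. The authors, per the submitters' processing notes, used the TAIR10 genome and the tools HISAT2, featureCounts and DESeq2, with versions not given in the sources used here. The table the authors deposited was read as FPKM, which was inferred from its values, with totals of 904625 to 1231239 per library. Gene names and neighbours come from a RefSeq table of another assembly, so no coordinates are given.

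Values were taken as log2(FPKM + 1), keeping genes at 1 FPKM or more in at least 3 libraries (2 with hrcC). Seedlings (18886 genes), leaves at 24 h (18164) and leaves with hrcC (17780) were fitted separately in R 4.3.3 with limma 3.58.1 (eBayes, trend and robust set to true), giving each group its own mean without a block, and two-sided p-values adjusted by Benjamini-Hochberg over all genes tested. The scripts were tested on simulated data.

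The members, the 12 lists (110 genes used, 2 left out because the annotation gives another symbol) and the tests were chosen with earlier results of these data known. Per list and comparison the text may name up to 4 called genes with the smallest adjusted p, and the 5 genes most like COR15A and CBF2 by Pearson r over group means, at 5 FPKM or more in 1 group.

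Replicate numbers were checked for pairing by correlating deviations from group means. In leaves at 24 h the 18 same-number pairs had r of 0.313 to 0.904. Pairs of different numbers ranged from -0.838 to 0.741, and 6 of 12 libraries were closest to their own number. The numbers thus pair these libraries only in part, by the data and not by the labels. The alternatives were other pseudocounts, filters, scalings and variance settings, fits of the compared groups alone, the replicate block and leaving out each library.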

Additional observations from a re-analysis of the deposited data

How the results depend on the processing

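No alternative reversed the direction of a called member, and calls moved more often than directions did. Over single genes, 377 alternative values kept their direction and side of the threshold, 39 lost the call and 34 gained it. In WT leaves at 24 h the count of members called, 3, became 5 with the replicate block, 6 with replicates 1 and 2 alone and 5 with both, and 0 to 4 without 1 replicate. In rdd leaves at 24 h the count of 0 became 2 with the block, 3 with replicates 1 and 2 alone, 2 with both, and 0 to 2 without 1 replicate. In WT seedlings the count of 0 at 1 h became 1 with a pseudocount of 5, 1 with a filter of 5 FPKM and 2 with the compared groups alone. The count of 2 at 3 h became 1 with no filter and 1 with the replicate block, and the count of 0 at 3 h against 1 h became 2 with the compared groups alone. In rdd seedlings the count of 1 at 3 h became 0 with no filter, without trend and robust variances, with the replicate block and with the compared groups alone, and 2 with median-ratio scaling. Leaving out 1 replicate gave 0 to 1 in WT at 1 h, 0 to 2 in WT and in rdd at 3 h, 0 to 1 in rdd at 3 h against 1 h and 0 to 1 between genotypes at 3 h. With hrcC the count of 4 in WT became 2 to 3 and the count of 3 in rdd became 1 to 5. In seedlings the numbers did not pair the libraries, with 10 of 45 same-number pairs over 0.1 (r of -0.272 to 0.33) and 10 of 18 libraries closest to their own number, and with hrcC 4 of 12 pairs were over 0.1. The replicate block changed no other count of members by over 1.5 times. Uncalled values near 0 changed sign with the scaling: COR47 in rdd leaves at 24 h was 0.09 and became -0.12 with median-ratio scaling. In those leaves the median of all genes was 0.18, and that scaling moved member values by at most 0.20. Where a choice moved a count, the cause was not tested. Depth is unknown, so no limit is set on CBF values listed at 0.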
